A study of Homo sapiens with 6 samples.

Results

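The genes of potassium, calcium and sodium channels were described across 3 stages of 1 human cell line. They are the genes of the deposited expression table whose symbol starts with KCN or CACN, or with SCN and a digit. The rule found 124 of the 18417 genes that had a probe set of their own, on 130 probe sets, and 4 genes had more than 1 probe set, of which the brightest on average was kept. By symbol, 35 were pores of voltage-gated potassium channels, 13 pores of inward rectifiers (KCNJ), 15 tandem-pore-domain potassium channels (KCNK) and 6 pores of calcium- or sodium-activated potassium channels, with 16 auxiliary subunits of potassium channels. A further 10 were pores of voltage-gated calcium channels with 15 auxiliary subunits, and 9 were pores of voltage-gated sodium channels with 3 beta subunits. The other 2 were KCNJ5-AS1, a transcript antisense to KCNJ5, and KCNQ1DN, a transcript beside KCNQ1 that is no channel.

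All samples came from WA09, a human embryonic stem cell line in wide use. Smooth muscle cells (SMC) were derived from it in 21 days and ISL1+ nascent mesoderm cells (INM) in 4 days, both with 2 added factors, BMP4 (50 ng/ml) and Wnt3a (25 ng/ml), and undifferentiated cells (hESC) were kept in the defined medium alone. Each group had 2 arrays of total RNA. The labels do not say whether the 2 samples of a group came from separate cultures, so every p-value reflects the spread of these arrays alone, and that spread may be technical, and how ISL1+ cells were obtained is not given in the sources used here.

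Ion channels set the resting potential of a cell and carry its electrical signals. In smooth muscle, calcium enters through the L-type channel whose pore is encoded by CACNA1C and triggers contraction. The large-conductance calcium-activated potassium channel, with the pore KCNMA1 and in smooth muscle the beta subunit KCNMB1, opens when calcium rises, passes potassium out of the cell and so limits further calcium entry. Inward rectifiers and tandem-pore-domain channels hold the resting potential, voltage-gated potassium channels repolarise the membrane, and voltage-gated sodium channels start action potentials in neurons and striated muscle. Auxiliary subunits change how many pores reach the membrane and how these open.

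Values are log2 signals of probe sets after robust multi-array averaging (RMA), a change is a difference of group means with its standard error (SE), and a gene was called higher (rose) or lower (fell) at an adjusted p under 0.05 in limma over all 18417 genes. The labels were borne out in part by their markers. The stem cell factor SOX2 stood at 11.45 in hESC, the label gene ISL1 at 9.51 in INM and smooth muscle actin (ACTA2) at 13.06 in SMC, as group means, and 6 of 8 smooth muscle markers rose in SMC versus hESC, whereas the smooth muscle myosin MYH11 read between 5.43 and 5.82 on the arrays of all groups, and its change in SMC versus hESC was -0.13 (SE 0.14, adjusted p = 0.507). Of the smooth muscle markers, 4 of 8 rose in INM versus hESC, and ACTA2 stood at 11.41 in INM. In SMC versus INM 3 of 8 rose and 1 fell, MYOCD, by 1.74 from its highest mean of 9.29 in INM. Of the mesoderm markers, 5 of 5 rose in INM versus hESC, but PDGFRA and TBX20 rose again in SMC versus INM, and GATA4 had a higher mean in SMC than in INM. Of the stem cell markers, 3 of 5 fell in INM versus hESC, while LIN28A (mean 11.07 in INM and 12.09 in hESC) and ZFP42 (9.71 in INM and 10.26 in hESC) were not called. Array medians lay between 6.66 and 6.68 on hESC arrays, 6.46 and 6.50 on INM arrays, and 6.53 and 6.54 on SMC arrays, so the median array of INM lay 0.19 and that of SMC 0.13 under that of hESC; small changes depend on this shift, as given beside the counts. The 2 INM arrays differed by more than 1 in 10 of the 124 channel genes (8.06%) and in 3.80% of all genes, against 0 channel genes in SMC and 0 in hESC. No measure of signal over background was used here, and group means below 5.04, the smallest median that probe sets without a gene name had on any array, are treated as low signal; 7 channel genes were below it at all stages, and no fold is given for a comparison with a mean below it.

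KCNMA1 and CACNA1C, the pores of the large-conductance potassium channel and the L-type calcium channel, rose by day 4 and stood lower at day 21 than at day 4, while KCNMB1 was not called at either step. KCNMA1 (probe set 7934570, chromosome 10) read 6.11 and 6.03 on hESC arrays, 8.49 and 8.31 on INM arrays, and 7.22 and 7.25 on SMC arrays. No arrays of any pair of groups overlapped. It was 5.03-fold higher in INM than in hESC, at 2.33 (SE 0.12, adjusted p = 8.28e-05), 2.24-fold lower in SMC than in INM, at -1.16 (SE 0.12, adjusted p = 0.00132), and 2.25-fold higher in SMC than in hESC, at 1.17 (SE 0.12, adjusted p = 5.45e-04). CACNA1C (probe set 7953040, chromosome 12) read 6.24 and 6.17 on hESC arrays, 8.41 and 8.38 on INM arrays, and 7.07 and 7.20 on SMC arrays. The arrays of the 3 stages were again apart, in the order hESC, SMC, INM. Its change was 2.19 (SE 0.11, adjusted p = 8.45e-05) in INM versus hESC, -1.26 (SE 0.11, adjusted p = 8.44e-04) in SMC versus INM and 0.93 (SE 0.11, adjusted p = 0.00114) in SMC versus hESC. The calls of both genes in the 3 comparisons held in all of 15 alternative fits, which kept the threshold on adjusted p alone. The 0.93 of CACNA1C in SMC versus hESC lay under the added threshold of a change of at least 1. A second CACNA1C probe set did not show the pattern. It read 5.70 and 5.48 on hESC arrays, 5.18 and 5.31 on INM arrays, and 5.58 and 5.21 on SMC arrays. Its change in INM versus hESC was -0.35 (SE 0.17, limma adjusted p = 0.168 over all probe sets). With the mean of both probe sets the changes of CACNA1C were 0.92, -0.55 and 0.37 in the order of the comparisons above. In bulk RNA, fewer cells that express a gene and less of its RNA per cell cannot be told apart.

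None of the beta subunits of the large-conductance channel had the same set of calls as its pore. KCNMB1, which raises the calcium sensitivity of the smooth muscle channel (probe set 8115756, chromosome 5), read 6.32 and 6.25 on hESC arrays, 6.64 and 6.46 on INM arrays, and 6.33 and 6.46 on SMC arrays. Its lower SMC array lay just above its higher hESC array. Its change in SMC versus hESC was 0.11 (95% interval -0.18 to 0.41, limma adjusted p = 0.505). A rise above 0.41 lay outside this interval, which was computed on the deposited scale alone. KCNMB1 changed by between 0.05 and 0.27 over the alternative fits, whose intervals were not computed. In INM versus hESC it changed by 0.26 (95% interval -0.03 to 0.56, adjusted p = 0.144), and this became a call at 0.45 (adjusted p = 0.0250) with arrays centred on their medians and at 0.48 (adjusted p = 0.0206) after quantile normalization. KCNMB2, a beta subunit that inactivates the channel, read 4.78 and 4.72 on hESC arrays, 4.54 and 4.66 on INM arrays, and 5.68 and 5.57 on SMC arrays, and it rose by 1.03 (SE 0.12, adjusted p = 0.00198) in SMC versus INM and by 0.88 (SE 0.12, adjusted p = 0.00162) in SMC versus hESC; only its SMC mean passed 5.04. KCNMB3 fell by 0.61 (SE 0.12, adjusted p = 0.0111) in INM versus hESC, and its 3 other probe sets changed by between -0.36 and -0.71, of which 1 was called. The call of KCNMB3 ended after quantile normalization and without hESC replicate 1. KCNMB4, the beta subunit known from neurons, read 9.38 and 9.44 on hESC arrays, 9.75 and 9.82 on INM arrays, and 9.74 on both SMC arrays. It was called 0.38 (SE 0.11, adjusted p = 0.0364) higher in INM and 0.33 (SE 0.11, adjusted p = 0.0498) higher in SMC than in hESC, and the first of these calls held only when INM replicate 1 was the array left out, and the second only when an INM array was. Of the gamma subunits LRRC26, LRRC38, LRRC52 and LRRC55, which also join this channel, 0 of 4 were called by limma in any comparison, and 1 had an unadjusted p under 0.05 in INM versus hESC and 0 in each of the others.

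**Figure D1:**
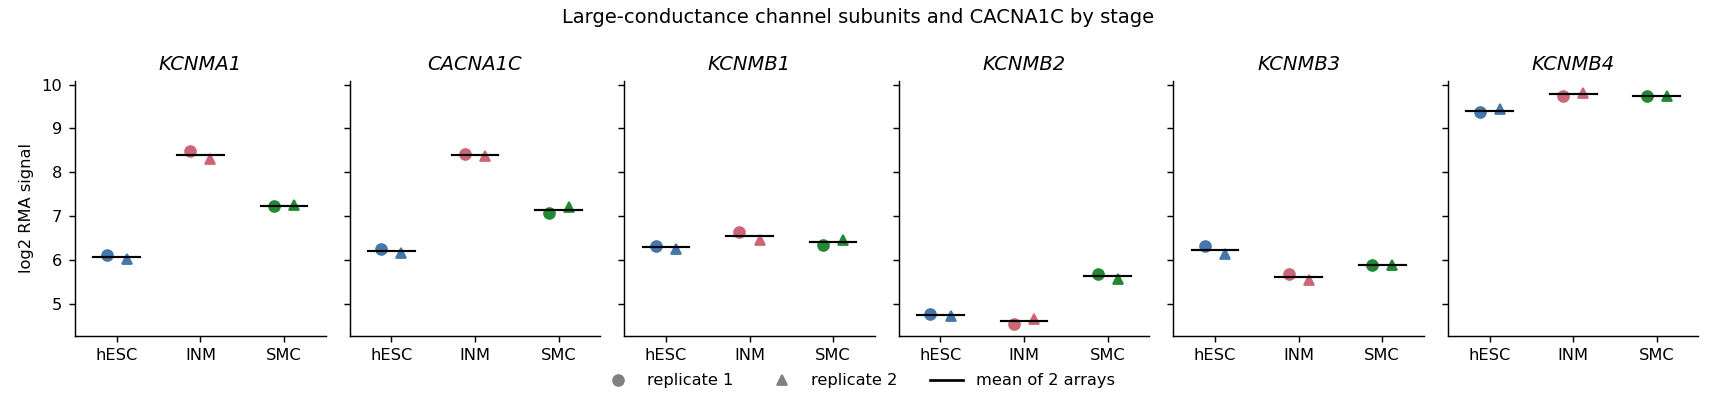
Log2 RMA signal of KCNMA1, CACNA1C and the beta subunits KCNMB1 to KCNMB4 on each of the 6 arrays, by stage, with circles for replicate 1, triangles for replicate 2 and a bar at the mean of 2 arrays. KCNMA1 and CACNA1C have INM means of 8.40 and 8.39, above their SMC means of 7.24 and 7.13, while KCNMB1 stays between 6.25 and 6.64.

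Start-site windows are shown for KCNMA1, CACNA1C and KCNJ2, the largest called rises at day 4 among genes with a window, and for KCNMB1. They were picked for display, so their contrast in base composition does not stand for other genes. CACNB3, which rose by 1.92 and is not shown, had a window with a G and C share of 66.7%. All are RefSeq windows of GRCh38.p14 from 250 bases before to 50 after the start. Those shown are written along the gene, in lower case with each GGCGCC in capitals. This palindrome is one that SMAD factors of BMP signalling are known to bind. The windows are chr10:77637759-77638058 on the minus strand for KCNMA1, chr12:2052737-2053036 on the plus strand for CACNA1C, chr17:70169282-70169581 on the plus strand for the inward rectifier KCNJ2, and chr5:170389318-170389617 on the minus strand for KCNMB1.
KCNMA1: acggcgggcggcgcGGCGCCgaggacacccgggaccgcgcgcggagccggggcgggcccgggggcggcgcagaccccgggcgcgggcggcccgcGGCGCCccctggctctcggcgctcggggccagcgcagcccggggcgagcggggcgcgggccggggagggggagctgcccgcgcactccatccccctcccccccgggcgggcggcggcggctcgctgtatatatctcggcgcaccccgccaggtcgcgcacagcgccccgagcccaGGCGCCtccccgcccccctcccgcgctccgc
CACNA1C: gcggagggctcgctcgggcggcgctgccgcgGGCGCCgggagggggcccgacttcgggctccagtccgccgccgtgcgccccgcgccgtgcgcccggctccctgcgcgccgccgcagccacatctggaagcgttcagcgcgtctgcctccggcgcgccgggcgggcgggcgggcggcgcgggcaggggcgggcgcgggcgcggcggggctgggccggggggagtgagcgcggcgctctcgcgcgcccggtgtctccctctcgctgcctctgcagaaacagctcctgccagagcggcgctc
KCNJ2: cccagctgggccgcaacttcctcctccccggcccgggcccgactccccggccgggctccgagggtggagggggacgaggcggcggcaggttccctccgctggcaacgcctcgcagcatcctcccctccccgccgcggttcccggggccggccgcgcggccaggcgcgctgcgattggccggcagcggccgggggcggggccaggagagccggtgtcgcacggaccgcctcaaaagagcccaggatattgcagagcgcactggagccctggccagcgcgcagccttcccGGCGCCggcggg
KCNMB1: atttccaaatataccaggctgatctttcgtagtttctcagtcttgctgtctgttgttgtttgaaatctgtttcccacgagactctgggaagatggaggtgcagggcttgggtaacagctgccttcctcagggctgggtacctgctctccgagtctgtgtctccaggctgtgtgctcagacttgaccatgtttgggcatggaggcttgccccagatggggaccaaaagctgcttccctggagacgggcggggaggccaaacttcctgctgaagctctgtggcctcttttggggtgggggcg
The KCNMA1 window holds GGCGCC at bases 15 to 20, 95 to 100 and 270 to 275, counted from its 5′ end, and has a G and C share of 85.7%. CACNA1C has the letters once at bases 32 to 37 and a share of 82.3%, and KCNJ2 once at bases 289 to 294 and a share of 78.0%. The KCNMB1 window has a share of 55.3% and no match to GGCGCC or to the CArG box, the element that serum response factor binds. For KCNMA1 the table lists a second start site, whose window has a share of 54.7% and no GGCGCC.

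At day 4 the deposited scale gave a smaller share of rises and a larger share of falls among channel genes than over all genes. Other scalings made the split of channel genes into rises and falls more even. In INM versus hESC 12 of 124 channel genes rose (9.68%), against 18.9% of all genes, and 29 fell (23.4%), against 14.8% of all genes; 83 did neither, and 33.8% of all genes were called either way. Their median change was -0.18, against -0.03 over all genes. For the alternative fits, here and in the other comparisons, the shares over all genes were not counted. Those fits therefore do not show whether the gap between channel genes and all genes changed. The split depended on scaling: 17 rose and 21 fell with median centring, and 19 rose and 18 fell after quantile normalization. The counts also changed with the arrays in the fit, which set the spread shared by the groups. A fit of only the INM and hESC arrays gave 8 rises and 22 falls. Leaving out 1 array of any group changed the counts too, also where that array was an SMC array. Calls held with any 1 array left out for 6 of the 12 rises (CACNA1C, CACNB3, CACNG4, KCNG1, KCNMA1 and KCNS1) and for 9 of the 29 falls (CACNA1A, CACNA1B, KCND2, KCNG3, KCNIP2, KCNS3, KCNT2, SCN1A and SCN8A).

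**Figure D2:**
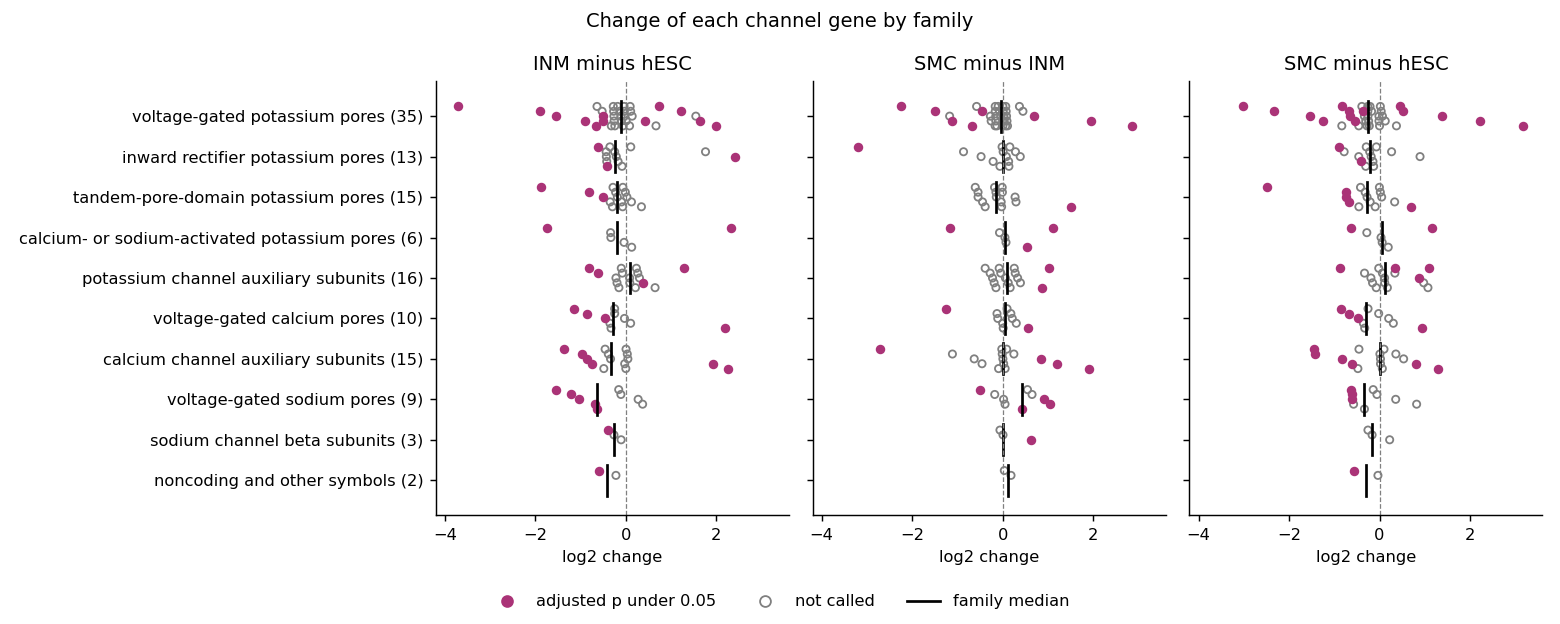
Change of each of the 124 channel genes on the log2 scale, by family, in INM minus hESC, SMC minus INM and SMC minus hESC, with filled points for genes called at an adjusted p under 0.05, open points for the others and a bar at the family median. In INM minus hESC the sodium pores have a median of -0.63 and 0 rises, and the largest rises and falls lie among potassium and calcium channel genes.

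The family counts at day 4 stand beside 18.9% of all genes that rose and 14.8% that fell. Among inward rectifiers 1 of 13 rose and 2 fell (KCNJ4 and KCNJ6) at day 4. KCNJ2, which holds the resting potential of heart and skeletal muscle (probe set 8009502), read 6.61 and 6.70 on hESC arrays, 9.95 and 8.17 on INM arrays, and 5.98 and 5.76 on SMC arrays. Both INM arrays stood above all others, but 1.77 apart. Its change was 2.41 (SE 0.51, adjusted p = 0.0126), 1.52 without INM replicate 1, and the call ended without hESC replicate 1 (adjusted p = 0.0848) or hESC replicate 2 (adjusted p = 0.0721). In SMC versus INM it fell by 3.19 (SE 0.51, adjusted p = 0.00708), a 9.13-fold difference whose call ended without SMC replicate 1 (adjusted p = 0.0574) or SMC replicate 2 (adjusted p = 0.0704). KCNJ8, the pore of the ATP-sensitive channel of vascular smooth muscle, changed by 0.11 (95% interval -0.15 to 0.37) in INM and 0.27 (95% interval 0.01 to 0.53, adjusted p = 0.0997) in SMC versus hESC and was not called.

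Of the voltage-gated potassium pores 5 of 35 rose (KCNA6, KCNG1, KCNH1, KCNQ5 and KCNS1) and 7 fell (KCNB2, KCND2, KCNG3, KCNH6, KCNH7, KCNH8 and KCNS3) by day 4. KCNS1 and KCNG1 encode subunits that form no channel of their own and modify other voltage-gated potassium channels. KCNS1 read 5.50 and 5.49 on hESC arrays, 7.90 and 7.07 on INM arrays, and 5.39 and 5.08 on SMC arrays, a stage pattern like that of KCNJ2, with changes of 1.99 (SE 0.27, adjusted p = 0.00237) in INM versus hESC and -2.24 (SE 0.27, adjusted p = 0.00241) in SMC versus INM. KCNG1 read 7.26 and 7.11 on hESC arrays, 8.79 and 8.85 on INM arrays, and 8.40 and 8.73 on SMC arrays; it rose by 1.63 (SE 0.14, adjusted p = 5.08e-04) in INM and 1.38 (SE 0.14, adjusted p = 6.38e-04) in SMC versus hESC. KCNH1, an ether-a-go-go channel, was called 0.73 (SE 0.18, adjusted p = 0.0205) higher in INM than in hESC, a call that ended without hESC replicate 1 (adjusted p = 0.0762), hESC replicate 2 (adjusted p = 0.117) or either SMC array (adjusted p = 0.0504). The silent subunits went both ways: KCNG3 and KCNS3, which are of the same kind, fell by 1.89 (SE 0.12, adjusted p = 1.67e-04) and 1.55 (SE 0.18, adjusted p = 0.00131).

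KCND2, the pore of a fast inactivating A-type channel, had the largest fall of any channel gene in INM versus hESC. It read 8.08 and 7.94 on hESC arrays, 4.10 and 4.51 on INM arrays, and 5.16 and 4.82 on SMC arrays. The hESC arrays stood more than 2 above all others, and the change was -3.71 (SE 0.18, adjusted p = 7.99e-05) in INM and -3.03 (SE 0.18, adjusted p = 7.78e-05) in SMC versus hESC; both later means lay under 5.04. Its relative KCND3 read 5.23 and 5.36 on hESC arrays, 5.65 and 8.04 on INM arrays, and 5.75 and 5.60 on SMC arrays. KCND3 was high on 1 INM array alone and was not called, at 1.55 (SE 0.67, adjusted p = 0.122). Among the KChIP proteins that bind these pores, KCNIP2 fell by 0.81 (SE 0.12, adjusted p = 0.00312) in INM versus hESC. KCNIP4 read 4.07 and 3.99 on hESC arrays, 5.92 and 4.72 on INM arrays, and 5.09 and 5.10 on SMC arrays; its rise of 1.29 (SE 0.35, adjusted p = 0.0305) in INM versus hESC was 0.69 without INM replicate 1, and the call ended without hESC replicate 1 (adjusted p = 0.130), hESC replicate 2 (adjusted p = 0.135) or either SMC array (adjusted p = 0.0683). The auxiliary potassium subunits had 2 rises (KCNIP4 and KCNMB4) and 2 falls (KCNIP2 and KCNMB3) among 16.

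Tandem-pore-domain channels had 0 rises and 3 falls (KCNK1, KCNK2 and KCNK5) among 15 at day 4. KCNK5, an acid-sensitive background channel, read 8.14 and 8.47 on hESC arrays, 5.92 and 6.94 on INM arrays, and 5.91 and 5.73 on SMC arrays. All later arrays lay more than 1 below hESC. It fell by 1.87 (SE 0.32, adjusted p = 0.00578) in INM, a call that ended without hESC replicate 2 (adjusted p = 0.0518), and it fell by 2.48 (SE 0.32, adjusted p = 0.00145) in SMC versus hESC. Its chromosome 6 neighbours KCNK17 and KCNK16 were not called at day 4. KCNK6, the family member with the highest mean, had changes of -0.30 (adjusted p = 0.138) in INM versus hESC and 0.29 (adjusted p = 0.179) in SMC versus INM. KCNT2, a sodium-activated potassium pore, read 8.33 and 8.45 on hESC arrays, 6.70 and 6.59 on INM arrays, and 7.79 and 7.74 on SMC arrays. It fell by 1.74 (SE 0.11, adjusted p = 1.79e-04) in INM versus hESC and rose by 1.12 (SE 0.11, adjusted p = 0.00138) in SMC versus INM, the reverse of KCNMA1, the other activated pore called at day 4 among 6.

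Calcium channel pores had 1 rise (CACNA1C) and 3 falls (CACNA1A, CACNA1B and CACNA1H) among 10 in INM versus hESC. CACNA1A, the P/Q-type pore of nerve endings, read 7.44 and 7.52 on hESC arrays, 6.34 and 6.33 on INM arrays, and 6.64 and 6.63 on SMC arrays, and it fell by 1.14 (SE 0.11, adjusted p = 6.25e-04) in INM. CACNA1B, the N-type pore, fell by 0.85 (SE 0.13, adjusted p = 0.00393). The call of CACNA1H, a T-type pore, at -0.47 (SE 0.14, adjusted p = 0.0399), ended with median centring and without hESC replicate 1, among others. Of the auxiliary calcium subunits 2 of 15 rose (CACNB3 and CACNG4) and 4 fell (CACNA2D3, CACNB2, CACNG5 and CACNG7). CACNB3, a cytosolic beta subunit that brings pores to the membrane, read 7.71 and 7.61 on hESC arrays, 9.89 and 9.28 on INM arrays, and 8.87 and 9.05 on SMC arrays; it rose by 1.92 (SE 0.21, adjusted p = 0.00106) in INM and by 1.30 (SE 0.21, adjusted p = 0.00358) in SMC versus hESC. Another beta subunit, CACNB2, known from heart, fell by 0.75 (SE 0.15, adjusted p = 0.0107) in INM versus hESC, a call that ended without either hESC array. CACNG4, a gamma subunit that also escorts AMPA receptors, read 7.64 and 7.57 on hESC arrays, 10.29 and 9.42 on INM arrays, and 7.03 and 7.27 on SMC arrays. It rose 4.77-fold in INM versus hESC, at 2.25 (SE 0.27, adjusted p = 0.00157), and was 6.53-fold lower in SMC than in INM, at -2.71 (SE 0.27, adjusted p = 0.00126).

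Sodium channel pores had 0 rises and 5 falls (SCN1A, SCN2A, SCN4A, SCN8A and SCN9A) among 9 at day 4, with a median change of -0.63. The falls made up 55.6% of these pores, against 14.8% of all genes. SCN1A and SCN2A had means under 5.04 in both groups, and the call of SCN4A, at -0.63, ended without hESC replicate 1. SCN8A, a pore of neurons, read 8.24 and 8.28 on hESC arrays, 6.82 and 6.60 on INM arrays, and 7.61 and 7.65 on SMC arrays, and a second probe set gave 8.17 and 8.36, 6.68 and 6.64, and 7.43 and 7.44 at the same stages. The 3 stages were apart on both probe sets. It fell by 1.55 (SE 0.12, adjusted p = 3.13e-04) in INM versus hESC and rose by 0.92 (SE 0.12, adjusted p = 0.00355) in SMC versus INM. SCN9A, a pore of sensory neurons, read 6.29 and 6.46 on hESC arrays, 4.84 and 5.46 on INM arrays, and 5.85 and 5.75 on SMC arrays, and fell by 1.22 (SE 0.21, adjusted p = 0.00582) in INM, a call that ended without hESC replicate 2 (adjusted p = 0.0509). SCN1A, SCN2A and SCN3A had group means between 3.67 and 5.10, near or under 5.04. SCN2A changed by -0.68 (SE 0.16, adjusted p = 0.0196) in INM versus hESC, a call that ended without either hESC array, and by 1.03 (SE 0.16, adjusted p = 0.00655) in SMC versus INM, a call that ended without SMC replicate 1 (adjusted p = 0.0697). One of the 3 beta subunits, SCN2B, was called lower at day 4, at -0.40 (SE 0.12, adjusted p = 0.0432), and this call ended in 11 of 15 alternative fits. SCN4B, which adjoins SCN2B on chromosome 11, changed by -0.10 (adjusted p = 0.527). KCNQ1DN, which is no channel, fell by 0.60 (SE 0.15, adjusted p = 0.0210).

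From day 4 to day 21 the share of channel genes called lay near that of all genes. In SMC versus INM 16 of 124 rose (12.9%), against 9.94% of all genes, and 10 fell (8.06%), against 11.1% of all genes, of which 21.0% were called either way. Median centring gave 14 rises and 14 falls, quantile normalization 14 and 15. Without SMC replicate 1 or SMC replicate 2 there were 7 rises and 4 falls each, and without INM replicate 1 there were 17 falls. Calls held with any 1 array left out for 6 of the 16 rises (KCNA3, KCNK1, KCNMB2, KCNQ5, KCNT2 and SCN8A) and for 4 of the 10 falls (CACNA1C, CACNG4, KCNMA1 and KCNS1). KCNA3, a voltage-gated pore known from lymphocytes and from dividing smooth muscle cells (probe set 7918457), rose most. It read 6.38 and 6.30 on hESC arrays, 6.14 and 5.28 on INM arrays, and 8.55 and 8.56 on SMC arrays. Both SMC arrays stood more than 2 above all others, with changes of 2.85 (SE 0.26, adjusted p = 9.27e-04) in SMC versus INM and 2.21 (SE 0.26, adjusted p = 0.00102) in SMC versus hESC.

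KCNQ5, a slow voltage-gated pore found in neurons and vascular smooth muscle (probe set 8120654), was higher at each later stage. It read 6.10 and 6.23 on hESC arrays, 7.69 and 7.08 on INM arrays, and 9.41 and 9.28 on SMC arrays. Its change was 1.22 (SE 0.20, adjusted p = 0.00542) in INM versus hESC, a call that ended without hESC replicate 1 (adjusted p = 0.0511), 1.96 (SE 0.20, adjusted p = 0.00145) in SMC versus INM and 3.18 (SE 0.20, adjusted p = 9.31e-05) in SMC versus hESC, a 9.04-fold difference. CACNG7, a gamma subunit next to CACNG8 and CACNG6, read 9.56 and 9.62 on hESC arrays, 7.65 and 8.78 on INM arrays, and 10.08 and 10.17 on SMC arrays. It was lowest at day 4, with changes of -1.37 (SE 0.33, adjusted p = 0.0206) in INM versus hESC and 1.91 (SE 0.33, adjusted p = 0.00982) in SMC versus INM. The first was -0.81 without INM replicate 1 and was not called without hESC replicate 1 (adjusted p = 0.104), hESC replicate 2 (adjusted p = 0.105) or either SMC array (adjusted p = 0.0513); the second was not called without SMC replicate 1 (adjusted p = 0.0742) or SMC replicate 2 (adjusted p = 0.0859).

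Other rises in SMC versus INM were those of KCNK1, a tandem-pore-domain channel with weak current, at 1.51 (SE 0.17, adjusted p = 0.00204), and CACNA2D1, a subunit that brings calcium pores to the cell surface, at 1.19 (SE 0.22, adjusted p = 0.0120), whose call ended without SMC replicate 1 (adjusted p = 0.101) or SMC replicate 2 (adjusted p = 0.0746). KCNE4, a small subunit that dampens voltage-gated potassium channels, read 5.74 and 5.65 on hESC arrays, 6.07 and 5.74 on INM arrays, and 6.56 and 7.01 on SMC arrays. Both SMC arrays stood above all others, and it rose by 0.88 (SE 0.19, adjusted p = 0.0206) versus INM and by 1.09 (SE 0.19, adjusted p = 0.00484) versus hESC; the first call ended without SMC replicate 2 (adjusted p = 0.133) or either hESC array (adjusted p = 0.0553). Beside KCNJ2, CACNG4, KCNS1, CACNA1C and KCNMA1, the falls were those of KCNH5, KCNH1, KCNA5, SCN3A and KCNG3, between -0.45 and -1.50, and the smaller rises included the T-type pore CACNA1G at 0.55 (SE 0.14, adjusted p = 0.0339), the beta subunit CACNB1 at 0.85 (SE 0.22, adjusted p = 0.0392) and the small-conductance pore KCNN1 at 0.53 (SE 0.11, adjusted p = 0.0203). CACNA1G was not called in 8 of 15 alternative fits and CACNB1 in 7 of 15, both without any 1 of the hESC and SMC arrays, and KCNN1 was not called without either SMC array. KCNH5 at -1.50 drew part of its size from INM replicate 2, which read 6.58 against 5.31 in replicate 1, and it was -0.86 without that array. Its call ended in 7 of 15 alternative fits, and the fit without INM replicate 2 was not among them. KCNA5, a delayed rectifier of heart and vascular muscle, read 5.25 and 5.34 in SMC, against 5.90 and 6.04 in INM, and fell by 0.67 (SE 0.11, adjusted p = 0.00903), a call that ended without SMC replicate 1 (adjusted p = 0.0872) or SMC replicate 2 (adjusted p = 0.0677).

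**Figure D3:**
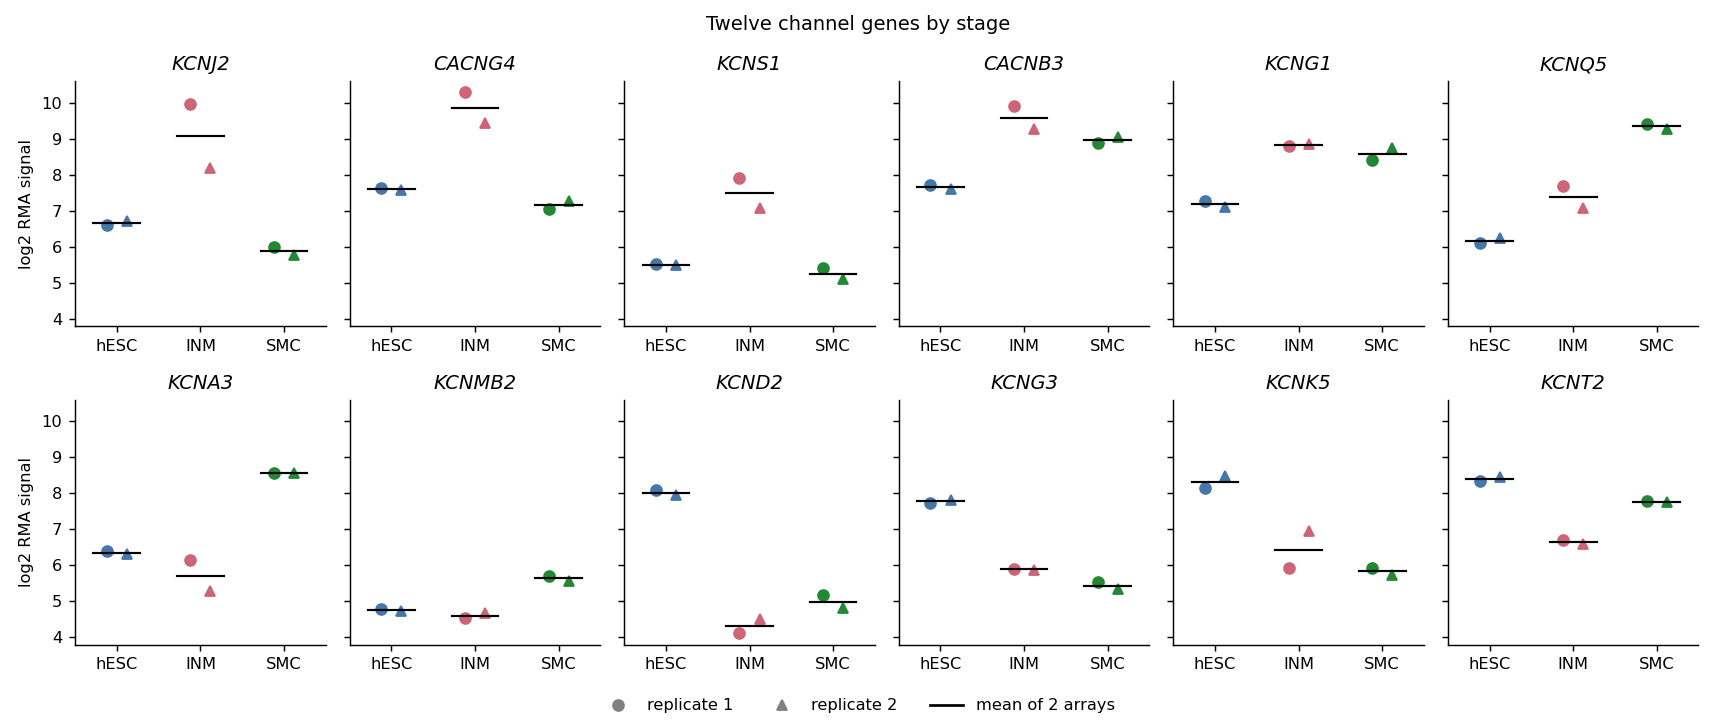
Log2 RMA signal of 12 channel genes on each of the 6 arrays, by stage, with circles for replicate 1, triangles for replicate 2 and a bar at the mean of 2 arrays. By mean, KCNJ2, CACNG4, KCNS1, CACNB3 and KCNG1 are highest in INM, KCNQ5, KCNA3 and KCNMB2 in SMC, and KCND2, KCNG3, KCNK5 and KCNT2 in hESC.

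Over the whole course, in SMC versus hESC, 13 channel genes rose (10.5%), against 19.7% of all genes, and 28 fell (22.6%), against 17.6% of all genes, of which 37.2% were called either way. Median centring gave 18 rises and 21 falls, quantile normalization 19 and 22. Fits that left out 1 array gave between 8 and 22 rises and between 13 and 40 falls, with 8 rises without hESC replicate 2 or either SMC array, 22 without either INM array, and 14, 13 and 15 falls without hESC replicate 1, SMC replicate 1 and SMC replicate 2. Leaving out any 1 array kept 8 rises, of CACNA1C, CACNB3, KCNA3, KCNE4, KCNG1, KCNMA1, KCNMB2 and KCNQ5. The other 5 were CACNA2D1, KCNA6, KCND1, KCNK1 and KCNMB4, at between 0.33 and 0.81. Falls that held in the same way were those of CACNA1A, CACNA2D3, KCND2, KCNG3, KCNH7, KCNH8, KCNIP2, KCNJ10, KCNK5 and KCNS3. KCNG3 fell by 2.34 (SE 0.12, adjusted p = 4.60e-05), KCNS3 by 1.55 (SE 0.18, adjusted p = 9.24e-04), CACNA2D3 by 1.43 (SE 0.19, adjusted p = 0.00168), KCNH8 by 1.24 (SE 0.17, adjusted p = 0.00171) and KCNJ10, a glial inward rectifier, by 0.90 (SE 0.14, adjusted p = 0.00307). CACNA2D2 was called at -1.45 (SE 0.43, adjusted p = 0.0374), with 6.04 and 6.46 in SMC, against 7.65 and 7.74 in hESC, and was not called in 7 of 15 alternative fits. The comparisons share arrays, so their values for a gene are not independent. They also share 1 spread per gene, so the SE of CACNA2D2 draws in part on INM arrays that lay more than 1 apart. A limma fit of only the hESC and SMC arrays gave 22 rises and 40 falls. A moderated F test called 53 of 124 channel genes as differing between any of the groups (42.7%), against 45.5% of all genes.

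By family, SMC versus hESC had 5 rises and 9 falls among 35 voltage-gated potassium pores, 0 and 2 (KCNJ4 and KCNJ10) among 13 inward rectifiers, 1 (KCNK1) and 4 (KCNK2, KCNK5, KCNK12 and KCNK17) among 15 tandem-pore-domain channels, and 1 (KCNMA1) and 1 (KCNT2) among 6 activated potassium pores. The auxiliary potassium subunits had 3 rises (KCNE4, KCNMB2 and KCNMB4) and 1 fall (KCNIP2) among 16. Calcium pores had 1 rise (CACNA1C) and 3 falls (CACNA1A, CACNA1B and CACNA1F) among 10, and auxiliary calcium subunits 2 rises (CACNA2D1 and CACNB3) and 4 falls (CACNA2D2, CACNA2D3, CACNB2 and CACNG5) among 15. Sodium pores had 0 rises and 3 falls (SCN1A, SCN4A and SCN8A) among 9, and the beta subunits 0 of either among 3, with 0 at an unadjusted p under 0.05. Over all genes 19.7% rose and 17.6% fell in this comparison.

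Several channel genes whose starts follow one another on a chromosome differed in their calls. By RefSeq's order of gene starts, 31 channel genes form 13 runs with no other protein-coding gene start between them. Gene ends were not compared, so genes of a run may overlap. On chromosome 17 KCNJ2 rose at day 4 while its neighbour KCNJ16 changed by -0.25, with a mean of 4.75 in INM and 4.99 in hESC. On the same chromosome CACNG4 rose while CACNG5 fell by 0.85 (SE 0.18, adjusted p = 0.0124), a call that ended without either hESC array, and CACNG1 had the same rounded mean of 5.26 in INM and hESC. CACNG7 on chromosome 19 changed at both steps, whereas CACNG8 had a mean of 7.74 at all 3 stages and CACNG6 stayed between 6.95 and 7.04. On chromosome 2 SCN1A and its neighbour SCN9A both fell at day 4, although SCN1A had means under 5.04 at all stages. SCN7A, in the same run, changed by 0.27 and was not called. In another run of that chromosome SCN2A fell by 0.68, while SCN3A changed by 0.37 and was not called. KCNMB1 on chromosome 5 forms a run with KCNIP1. KCNIP1 read 5.80 and 5.84 on hESC arrays, 5.87 and 7.06 on INM arrays, and 6.64 and 6.95 on SMC arrays and was not called.

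The channel genes that differed between the INM arrays did so in both directions. Replicate 1 was higher by more than 1 in KCNJ2 and KCNIP4, and replicate 2 in KCNJ13, KCND3, CACNA2D2, KCNH5, SCN7A, KCNIP1, CACNG7 and KCNK5. KCNJ13, an inward rectifier of epithelia, read 3.83 and 3.91 on hESC arrays, 4.39 and 6.87 on INM arrays, and 4.76 and 4.77 on SMC arrays, so that its change of 1.76 in INM versus hESC (SE 0.69, adjusted p = 0.0963) rested on 1 array. Marker sums on the linear scale differed between the same arrays. Endothelial markers (6 of 6 measured) summed to 1051 and 4518 on INM replicates 1 and 2. KDR (9.09 and 11.47 on the log2 scale) and TEK (7.97 and 10.52) carried that sum, whereas CDH5 (6.66 and 5.90), PECAM1 (5.66 and 5.32) and VWF (5.45 and 5.35) were lower on replicate 2. Neuronal markers (9 of 10) summed to 4988 and 1923, carried by STMN2 (11.81 and 8.95), while NEFL (7.23 and 8.41) went the other way. Smooth muscle markers (8 of 8) summed to 7433 and 4780, with ACTA2 and TAGLN higher on replicate 1 and MYOCD and SMTN on replicate 2, and their mean log2 signals were 8.51 and 8.39. Cardiomyocyte markers (8 of 9) summed to 503 and 534. The part of these markers in the channel values was not tested. In SMC the neuronal markers summed to 4334 and 4508, against 2824 and 2796 in hESC, with 3 of 9 rising (GAP43, NEFL and SNAP25) and 4 falling (ELAVL3, RBFOX3, SYP and SYT1); fibroblast markers rose in 6 of 6, with sums of 22908 and 21959 in SMC, against 1036 on both hESC arrays. Whether these other markers bear on KCNQ5, KCNA3 and the other rises in SMC was not tested.

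**Figure D4:**
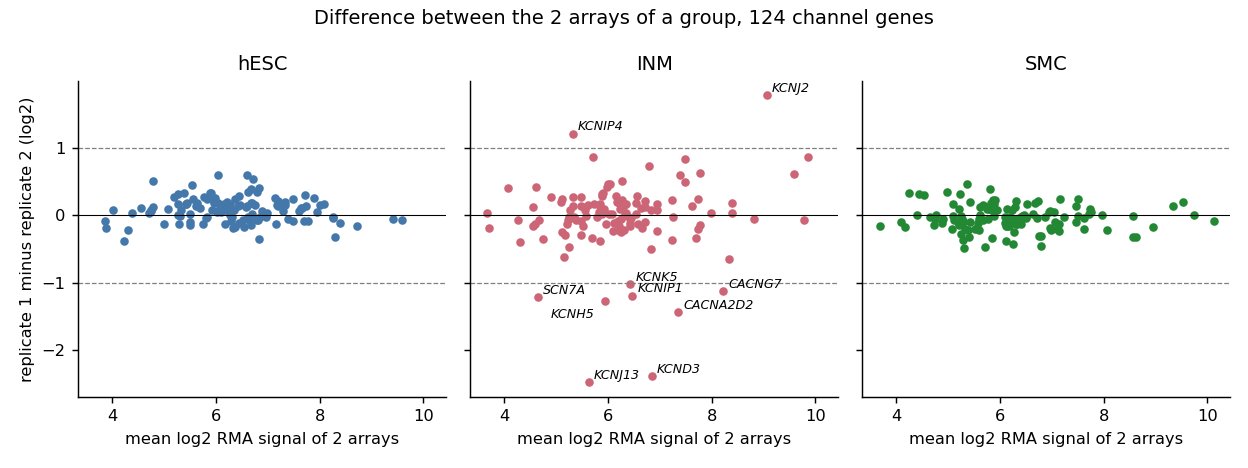
Replicate 1 minus replicate 2 on the log2 scale against the mean signal of the 2 arrays, for 124 channel genes in hESC, INM and SMC, with dashed lines at a difference of 1. In INM 10 genes lie beyond the lines, with KCNJ13 and KCND3 lowest and KCNJ2 highest, and 0 lie beyond them in hESC and SMC.

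Genes outside the channel families that move calcium and set excitability were taken from a separate list. Of 27 genes of calcium release, pumps and exchange, 8 rose (29.6%, against 18.9% of all genes) and 4 fell (ATP2A3, ITPR2, RYR1 and TPCN2; 14.8%, as over all genes) in INM versus hESC. Over the whole course, SMC against hESC, 8 rose (29.6%, against 19.7% of all genes) and 9 fell (33.3%, against 17.6% of all genes). SLC8A1, the sodium-calcium exchanger, read 6.55 and 6.57 on hESC arrays, 9.36 and 9.03 on INM arrays, and 6.08 and 6.39 on SMC arrays. Like CACNA1C it was highest on the INM arrays, with changes of 2.64 (SE 0.16, adjusted p = 1.44e-04) in INM versus hESC and -2.96 (SE 0.16, adjusted p = 1.52e-04) in SMC versus INM. The plasma membrane calcium pumps ATP2B4 and ATP2B1 rose by 2.77 (SE 0.13) and 2.00 (SE 0.25) in INM and by 2.03 (SE 0.13) and 2.16 (SE 0.25) in SMC versus hESC. Sarcolipin (SLN) and phospholamban (PLN) restrain the calcium pump of the sarcoplasmic reticulum. SLN rose at day 4, at 2.71 (SE 0.24, limma adjusted p = 4.98e-04), from a mean of 4.79 in hESC. PLN rose in SMC versus INM, at 1.99 (SE 0.19, limma adjusted p = 0.00117), from a mean of 4.31 in INM. These starting means lay under 5.04. The inositol trisphosphate receptor ITPR3 fell by 1.96 (SE 0.25, adjusted p = 0.00306) in SMC versus INM and by 2.39 (SE 0.25, adjusted p = 6.19e-04) in SMC versus hESC.

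Among 18 other cation and chloride channels 6 rose (33.3%, against 18.9% of all genes) and 2 fell (TRPC4 and TRPC6; 11.1%, against 14.8% of all genes) in INM versus hESC. Over the whole course 5 rose and 5 fell (27.8% each, against 19.7% and 17.6% of all genes), with rises of ANO1, CLCN3, CLIC1, PIEZO1 and TRPV2, falls of HCN3, HCN4, TRPC4, TRPC6 and TRPM7. ANO1, the calcium-activated chloride channel of smooth muscle, read 6.16 and 6.31 on hESC arrays, 6.39 and 7.81 on INM arrays, and 9.25 and 9.10 on SMC arrays. Its SMC arrays stood above all others, at 2.94 (SE 0.41, adjusted p = 0.00201) versus hESC. TRPC4, a receptor-operated cation channel, fell by 2.49 (SE 0.24, limma adjusted p = 6.71e-04) in INM versus hESC. TRPC6 had means of 4.87 in hESC, 4.34 in INM and 4.03 in SMC, all under 5.04. Of the sodium pump genes, 3 were measured and ATP1B2 fell by 0.88 (SE 0.13, adjusted p = 0.00315) at day 4 and rose by 1.19 (SE 0.13, adjusted p = 0.00169) in SMC versus INM. REST, which represses neuronal genes such as sodium channels, read 9.23 and 9.12 on hESC arrays, 9.88 and 9.84 on INM arrays, and 9.14 and 9.26 on SMC arrays. It was 0.68 (SE 0.11, adjusted p = 0.00542) higher in INM than in hESC and changed by -0.66 (SE 0.11, adjusted p = 0.00952) in SMC versus INM, and its corepressor RCOR1 rose by 0.49 (SE 0.12, adjusted p = 0.0201) in INM versus hESC. Any link between REST and the sodium pores was not tested.

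The table had start-site windows for 94 of 124 channel genes and for 8 of the 12 that rose at day 4, and the first listed window of each gene was read. CACNG4, KCNG1, KCNMB4 and KCNS1, the other 4 that rose, were not read, and the calls of CACNG4, KCNG1 and KCNS1 are among the 6 that held with any 1 array left out. The 8 windows read were rich in G and C and held GGCGCC: the letters stood in 8 of 8 windows of genes that rose in INM versus hESC, in 7 of 23 of those that fell and in 16 of 63 of those that did neither; it was found in 31 of all 94 channel windows (33.0%) and in 25.9% of the 14237 windows of all genes tested. GGCGCC stood in 7 of 7 windows read of the 10 genes that fell in SMC versus INM. Those of KCNMA1, CACNA1C, KCNJ2 and KCNH1 were already counted among the 8, so the 7 are no separate set. The others were KCNA5, KCNG3 and KCNH5, whose calls did not hold in every alternative fit. KCNG3 was also among the genes that fell at day 4. Base composition moved with GGCGCC. The 8 windows had a median G and C share of 77.0%, against 70.3% in those that fell and 62.7% in those that did neither. Among windows with a share of at least 65%, GGCGCC stood in 8 of 8 that rose, 6 of 13 that fell and 14 of 29 that did neither, and in 43.6% of 6262 windows of all genes tested. Over all genes tested it was in 32.3% of windows of genes that rose at day 4 and 23.8% of those that fell. The calls of KCNH1, KCNIP4, KCNA6, KCNQ5 and KCNJ2 among the 8 did not hold with every array left out, and at KCNMA1, KCNIP4 and CACNB3 the windows of other start sites lacked the letters. GGCGCC was 1 of 6 motifs searched on both strands. Among 94 channel windows a CArG box stood in 1, that of KCNK3 (1.06%, against 1.22% of windows of all genes tested). CTTTGA stood in 8 (8.51%, against 1563 of 14237) and TATAAA in 7 (7.45%, against 1281 of 14237). TTCAGCACC, the left part of the REST element, stood in 3 (3.19%, against 0.393%), and the right part in 0 (against 0.379%). The 3 were CACNG3 and KCNK3, not called in any comparison, and KCNH6, called lower in INM and in SMC versus hESC. TTCAGCACC stood in 0 of 7 windows of sodium pores. A CArG box can hold TATAAA; the other motifs do not lie within one another. A match is a run of letters and was not shown to be a bound site.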

How the data were processed

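RNA of 6 WA09 samples was measured on Affymetrix arrays, 1 array each. The authors deposited log2 expression values of 33297 probe sets. RMA and limma are the tools listed per the submitters' processing notes, which give no settings, and the values themselves fit a log2 scale. Gene symbols came from the array platform's table: 19460 probe sets had 1 symbol, 1754 several and 12083 none. Entrez identifiers updated 19429 of them to RefSeq (GRCh38.p14). The brightest single-symbol probe set of each gene was kept, which left 18417 genes. KCNRG, KCNJ12 and KCNJ18 lie on probe sets with several symbols and were not counted.

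Group means were fitted in limma 3.58.1 (R 4.3.3, lmFit and eBayes) over the 6 arrays together, with 3 residual and 3.56 prior degrees of freedom. Tests were two-sided, with Benjamini-Hochberg adjustment over 18417 genes. With 2 arrays in each of 2 groups, no exact permutation p can be below 0.333. Intervals use the moderated SE. The fit was tested on simulated data. Alternatives changed the scaling, filter, probe sets, prior, arrays, weights, block and threshold. Named genes are KCNMA1, CACNA1C and the KCNMB genes, the 8 largest called rises and falls of each comparison, members behind counts of 5 or fewer, the member with the highest mean of each family, and the 4 largest changes among other excitability genes; KCNJ8, KCNJ13, KCNJ16, KCND3, KCNIP1, CACNG1, CACNG6 and CACNG8 were added after their values were seen. Channel genes and lists were chosen with earlier results of these data known.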

Additional observations from a re-analysis of the deposited data

Results flagged for a closer look

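A second probe set of KCNG1, which entered the alternatives that use every probe set but not the reported comparisons, also stood above hESC on all later arrays. It read 7.97 and 7.79 in INM, against 7.005 and 6.81 in hESC, a change of 0.97 (SE 0.15, limma adjusted p = 0.00573 over all probe sets). In SMC it read 7.56 and 7.81, a change of 0.78 (SE 0.15, limma adjusted p = 0.0126) against hESC. No group had enough arrays for a test of single arrays that stand apart.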

How the results depend on the processing

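Of the 108 calls of channel genes in the 3 comparisons, 42 held in all of 15 alternative fits, 66 were lost in 1 or more, and 0 turned in sign. The added threshold of a change of at least 1 was not among these 15 fits. KCNMB1 in INM versus hESC became a call at 0.45 with median centring and 0.48 after quantile normalization. For INM versus hESC, quantile normalization gave 19 rises and 18 falls, and a change of at least 1 gave 9 rises and 10 falls. For SMC versus INM, a change of at least 1 gave 8 rises and 7 falls. For SMC versus hESC, a fit of only these 2 groups gave 22 rises and 40 falls, and array weights gave 20 rises and 40 falls. A change of at least 1 gave 6 rises and 7 falls there. Leaving out 1 array gave 6 to 17 rises and 12 to 35 falls in INM versus hESC, 7 to 21 rises and 4 to 17 falls in SMC versus INM, then 8 to 22 rises and 13 to 40 falls in SMC versus hESC, and 32 to 71 genes that differed between any groups. Where a group kept 1 array, that array was assumed to vary like the other groups. The cause of these shifts was not tested. With the replicate number as a replicate block there were 11 rises and 26 falls in INM versus hESC, 12 and 10 for SMC versus INM, 13 and 27 for SMC versus hESC, and 49 genes that differed between any groups. Same-numbered deviations correlated at 0.0737 between hESC and INM, -0.119 between hESC and SMC and -0.067 between INM and SMC, across genes, which are not independent replicates. Such weak correlations cannot show whether the numbers pair the samples. Signal over background was not measured, so low values limit what changes can show for the 12 channel genes with 1 or 2 group means below 5.04 and the 7 with all 3 below it.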
